A study of Mus musculus with 8 samples.

Results

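Late and early responses to cisplatin were compared in proximal tubules isolated from mouse kidney, as the 72 h group against the 24 h group. The comparison was chosen by time label and takes in 4 of the 8 samples of the series, 2 at 24 h and 2 at 72 h. Both groups were C57BL/6 males given 30 mg/kg cisplatin by intraperitoneal injection, and both were RNA from proximal tubular cells of the renal cortex. The remaining 4 samples, 2 at 0 h with no dose listed and 2 at 48 h, entered the fit to share an estimate of the spread, and their values are given where they place a gene in time. The duplicates are called biological in the series text but are not said to come from separate animals, and a p-value here reflects only how far such libraries differ from each other, which may be technical. Columns of the tables carry the letters a and b, which are not tied to numbered replicates. The labels name no transgene or mutation in either group. No vehicle group at 24 h or 72 h was used here, so time since injection and any other effect of time cannot be told apart.

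The proximal tubule reabsorbs most of the filtered salt, glucose, amino acids, phosphate and protein through brush border transporters and the endocytic receptors megalin and cubilin, and it draws its energy mainly from fatty acid oxidation. Cisplatin, a platinum compound that crosslinks DNA, enters these cells through organic cation transporters and injures them. Injured tubule cells are known to switch on p53 targets and immediate-early genes, to lose transporter expression, to secrete chemokines and matrix, and, if they survive, to re-enter the cell cycle. The 24 h and 72 h groups allow the parts of this sequence to be set against each other.

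Linear RNA was given as FPKM, fragment counts scaled to gene length and library size, for 21874 gene rows, and circular RNA (circRNA) as whole counts of back-splice junctions for 2163 circles. Depth of the linear libraries is unknown, since FPKM do not give it. The circRNA counts totalled 17057 and 17348 in the 24 h libraries, against 16318 and 15455 in the 72 h libraries. Circles with a count above 0 numbered 1405 in 24 h library a and 1570 in library b, against 1564 and 1546 at 72 h. Across genes, which are not independent replicates, log2(FPKM + 1) had a Pearson's r of 0.989 between the 24 h libraries, 0.992 between the 72 h libraries and 0.924 to 0.929 across the groups. Summed FPKM were 375186 and 348891 in the 24 h libraries, against 351353 and 354145 in the 72 h libraries. For mt-Co1, of the mitochondrial genome, the 24 h and 48 h libraries list 0 and the 72 h libraries 16678 and 17071 FPKM, so no fold is given for it. With mt-Co1 taken out of both the sum and the total, genes of that genome held 20.2% and 21.4% of the remaining FPKM in the 24 h libraries and 17.7% in both 72 h libraries; the part of this in the results below was not tested. Many rows reach beyond their gene. Rows that also span another protein-coding gene without a row of its own are called merged below, and their values cannot be split between the genes.

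Injury, inflammation and matrix genes stood far higher at 72 h than at 24 h, and genes of tubular transport and metabolism stood lower still. limma (Benjamini-Hochberg adjusted p under 0.05) called 6178 of 10757 tested rows, 57.4%, of which 4053 were higher at 72 h (37.7% of the rows tested) and 2125 lower (19.8%). The median change of all tested rows was 0.14 on the log2 scale. The split rests on the scaling, which moved that median to -0.04 and -0.02: 2925 rows were higher and 3357 lower when all libraries were given 1 median, and 3065 and 3180 when they were quantile normalised. Changes of at least 2-fold were called in 802 rows upward (7.46%) and 364 downward (3.38%). The 24 h and 72 h libraries did not overlap in 8370 rows (77.8%). With shares this high, a gene that passed the threshold is 1 of many, and sizes of change are given for each gene named. All changes are on the log2(FPKM + 1) scale, where a gene near 0 FPKM shows less than its true fold. For rows called with at least a 2-fold rise the 48 h mean lay between the 24 h and 72 h means in 726 of 802 rows (90.5%), and for the 2-fold falls in 358 of 364 (98.4%). Over all called rows the shares were lower, with 2972 of 4053 rises (73.3%) and 1633 of 2125 falls (76.8%). In 978 of the 4053 rises the 48 h mean lay below the 24 h mean.

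Havcr1, which encodes the kidney injury marker KIM-1, had the largest rise (chromosome 11, 46682647 to 46780361, mm10; the row overlaps that of Timd2). It was at 2.46 and 2.53 FPKM in the 24 h libraries, against 259.5 and 262 in the 72 h libraries. The 72 h mean was 105-fold the 24 h mean, with no overlap, and the 48 h libraries, at 32.9 and 47.2 FPKM, lay between. The log2 change was 6.23 ± 0.14 (SE; limma adjusted p = 2.9e-08). Fgg, the gamma chain of the clotting protein fibrinogen (chromosome 3, 83007724 to 83015057), was at 1.28 and 1.26 FPKM in the 24 h libraries, against 79.9 and 81.2 in the 72 h libraries, a log2 change of 5.17 ± 0.20. The 48 h libraries held 4.18 and 4.58 FPKM, so that most of the rise of Fgg fell in the last of the 24 h steps. Its partner chain Fgb went from 0.245 and 0.174 to 7.87 and 8.12 FPKM. C3, the central complement component, was at 2.99 and 2.74 FPKM in the 24 h libraries, against 47.4 and 46.7 in the 72 h libraries.

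The next largest rises were in genes of epithelial barriers, secretion and inflammation. The row of Chil3, a chitinase-like protein of macrophages, is merged with Chil4 and went from 2.28 and 2.05 to 48.8 and 52.0 FPKM. Crct1 and Sprr1a, both of the cornified envelope that skin cells build, went from 0.209 and 0.123 to 13.5 and 13.6 FPKM and from 2.22 and 1.76 to 33.5 and 38.9 FPKM. Slpi, an inhibitor of neutrophil proteases, went from 0.374 and 0.167 to 13.1 and 14.5 FPKM. Calcb, a calcitonin gene-related peptide, Ces2e, a carboxylesterase, and Gc, the vitamin D binding protein of plasma, rose by 3.46, 3.29 and 3.19 on the log2 scale. S100a6, a calcium-binding protein whose row is merged with S100a7a, went from 26.5 and 25.7 to 248 and 242 FPKM. Rows entered this ranking only if they were called and their 24 h and 72 h libraries did not overlap, so neither is a further result. The limma adjusted p ranged from 1.4e-08 in Chil3 to 8.1e-05 in Gc.

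Coq10b, which acts in the coenzyme Q pathway of mitochondria, completed the 12 largest rises with another course. It was at 25.3 and 27.4 FPKM before cisplatin (0 h), then 3.50 and 3.50 (24 h), 2.52 and 2.49 (48 h) and finally 37.3 and 41.8 (72 h). The 24 h and 48 h libraries were low and the 0 h and 72 h libraries high, with no overlap between them. The change from 24 h to 72 h was 3.17 ± 0.09 (limma adjusted p = 4.0e-08).

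The largest falls began with haemoglobin. The row of Hba-x, merged with the adult alpha globin genes Hba-a1 and Hba-a2, was at 283 and 126 FPKM in the 24 h libraries, against 4.14 and 1.504 in the 72 h libraries, and the row of Hbb-bs, merged with Hbb-bt, was at 202 and 233 FPKM in the 24 h libraries, against 4.79 and 4.18 in the 72 h libraries. Both globin rows were lower in both 72 h libraries, by 5.73 ± 0.74 and 5.32 ± 0.09 on the log2 scale. Alas2, the haem synthesis enzyme of red cell precursors, fell from 1.98 and 1.15 to 0.0204 and 0.0750 FPKM. The platelet genes Pf4 and Ppbp, by contrast, rose from 2.51 and 2.79 to 5.66 and 5.09 FPKM and from 0.406 and 0.563 to 1.52 and 1.28 FPKM.

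The other 10 of the 12 largest falls were in enzymes, transporters and secreted proteins. That no 72 h library reached a 24 h library was again a condition of the choice. Spp2, a secreted phosphoprotein, went from 127 and 115 to 6.67 and 6.59 FPKM. Mep1b, the beta subunit of the brush border protease meprin, went from 42.2 and 44.8 to 2.77 and 2.32 FPKM, and Dnase1, the secreted nuclease, from 201 and 202 to 23.9 and 23.4 FPKM. Slc7a13, the cystine and aspartate transporter of the S3 segment, went from 189.6 and 183 to 18.0 and 18.0 FPKM. Akr1c21, a ketosteroid reductase in a row merged with Akr1c19, went from 739 and 743 to 80.1 and 82.0 FPKM. Miox, which opens the ring of myo-inositol, went from 823 and 703 to 93.3 and 90.6 FPKM, and Hao2, a peroxisomal hydroxyacid oxidase, from 99.4 and 102 to 11.4 and 11.5 FPKM. Acmsd, which steers tryptophan breakdown away from NAD, went from 34.3 and 33.5 to 2.10 and 2.19 FPKM. The row of Cyp2d26, a cytochrome P450 merged with Cyp2d12, and Dio1, which activates thyroid hormone, fell by 3.40 and 2.94 on the log2 scale. Their limma adjusted p ranged from 5.6e-09 in Spp2 to 1.2e-07 in Cyp2d26. All 12 largest rises and all 12 largest falls passed the threshold under every alternative setting in which they were tested. Their choice as the largest calls favoured this.

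**Figure D1:**
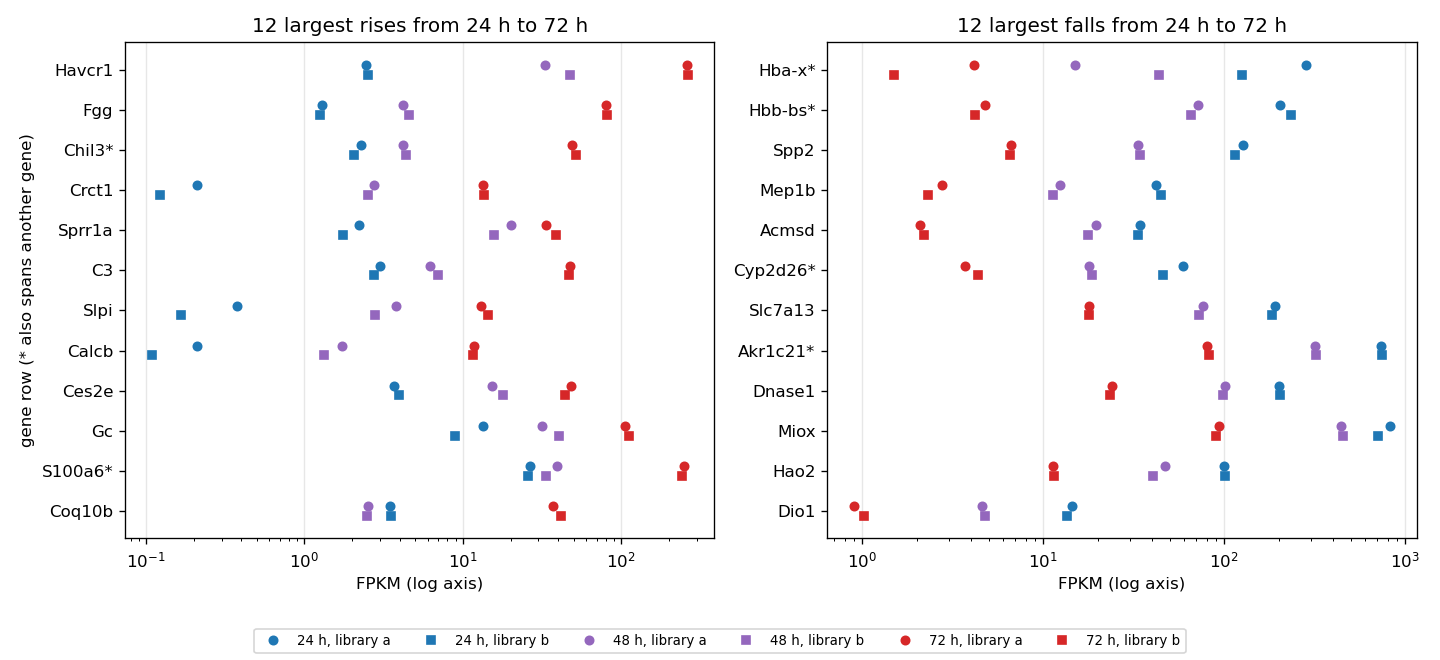
FPKM on a log axis for the 12 rows that rose most and the 12 that fell most from 24 h to 72 h. Each point is 1 library (circle a, square b) at 24 h, 48 h or 72 h, and a star marks rows that also span another gene. Rows were picked only if the 72 h points were apart from the 24 h points. Only in Coq10b do the 48 h points lie outside the range between them.

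Gene lists were read as counts of members called, beside the 37.7% higher and 19.8% lower among all tested rows and beside the median change of 0.14. Of all tested rows, 371 passed the filter only through the 72 h libraries. With no filter on low values, 4536 of 19299 rows were higher and 2114 lower (median 0.015). List counts given without a filter are to be read beside these. Tubular injury markers rose in 14 of 16 tested members and fell in 1 (median 1.47). Clu, a secreted chaperone, was at 73.5 and 73.0 FPKM in the 24 h libraries, against 532 and 543 in the 72 h libraries, Lcn2, the iron-trapping protein lipocalin 2 in a row merged with 1110008P14Rik, at 111 and 101 FPKM in the 24 h libraries, against 479.9 and 491 in the 72 h libraries. Spp1, which encodes osteopontin, was at 635 and 670.1 FPKM in the 24 h libraries, against 2285 and 2145 in the 72 h libraries. These genes rose by 2.86, 2.19 and 1.76 on the log2 scale, with both 72 h libraries above both 24 h libraries. Members at the low end were Il18 (0.30, limma adjusted p = 0.045), whose call was kept under 4 of 16 alternatives, and Igfbp7, the 1 that fell (-0.23), kept under 12 of 18. Tnfrsf12a, the receptor of the cytokine TWEAK in a row merged with Thoc6, did not pass: it was at 195 and 167 FPKM in the 24 h libraries, against 194 and 204 in the 72 h libraries, with the 24 h and 72 h libraries overlapping.

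The list of keratins, cornified envelope proteins, annexins and S100 proteins also held the lectin genes Lgals1 and Lgals3. Of its 20 tested members, 17 rose with none lower (median 1.43). Lgals1, which encodes a galactoside-binding lectin, was at 34.7 and 34.2 FPKM in the 24 h libraries, against 216 and 222 in the 72 h libraries. Anxa2, a calcium-dependent membrane-binding protein, was at 66.4 and 67.7 FPKM in the 24 h libraries, against 268 and 282 in the 72 h libraries, and the lectin gene Lgals3 at 50.2 and 46.3 FPKM in the 24 h libraries, against 173 and 178 in the 72 h libraries. The 72 h means were 6.36-fold, 4.10-fold and 3.64-fold the 24 h means in these genes, with no overlap of the libraries. Tgm1, Krt23 and Anxa1 did not pass, and the 24 h and 72 h libraries of Anxa1 overlapped (2.36 and 0.540 to 1.97 and 1.11 FPKM).

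Promoters of the injury and keratin lists were read for the AP-1 recognition sequence, TGANTCA on either strand, which Fos and Jun proteins bind. It was found in 5 of 19 windows of the tubular injury list (26.3%) and in 6 of 21 windows of the keratin list (28.6%), against 7.81% of all 32851 RefSeq promoter windows of the same length, from 250 bases before to 50 bases after a gene start. Some genes are on both lists. It was also in windows of other lists, among them 6 of 25 for chemokines (24.0%) and 5 of 25 for NRF2 targets. Other lists that mostly rose had few, with 2 of 24 for extracellular matrix (8.33%) and 1 of 31 for cell death regulators (3.23%). The window of Sprr1a is shown because this gene is among the 12 largest rises and its window holds 2 matches; it lies at chr3:92485832-92486131 on the minus strand of GRCm38.p6, and capitals mark the TGANTCA matches.
Sprr1a: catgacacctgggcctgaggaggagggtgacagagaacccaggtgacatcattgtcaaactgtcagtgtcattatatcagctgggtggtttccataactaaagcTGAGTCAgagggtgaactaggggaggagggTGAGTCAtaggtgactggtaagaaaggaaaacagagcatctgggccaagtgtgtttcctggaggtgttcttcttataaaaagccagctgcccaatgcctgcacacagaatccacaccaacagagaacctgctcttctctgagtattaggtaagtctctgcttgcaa
The first bases of the 2 matches lie 146 and 116 bases before the start. A match is a string of letters, and occupancy was not measured.

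The stress lists held members that stood higher at 72 h beside members that stood lower. The p53 targets, which arrest the cycle or repair DNA, rose in 16 of 29 and fell in 4 (median 0.44), or in 12 and 6 with the same median in every library and in 16 and 2 without 72 h library a. Cdkn1a, the inhibitor of cyclin-dependent kinases (chromosome 17, 29086268 to 29100722), was at 57.0 and 49.6 FPKM in the 24 h libraries, against 92.6 and 102 in the 72 h libraries. Its 72 h libraries did not overlap those at 24 h (0.86 ± 0.10, limma adjusted p = 8.4e-05), but the 48 h libraries, at 93.9 and 89.9 FPKM, were already at that level. Gdf15, a stress cytokine, went from 19.3 and 14.8 to 42.5 and 42.4 FPKM, Eda2r, a death-domain receptor, from 5.38 and 4.45 to 12.2 and 12.8 FPKM, and Tap1, a peptide transporter of antigen presentation, from 7.55 and 8.02 to 16.2 and 15.8 FPKM. Bax, which permeabilises mitochondria, rose by 0.63 in a row merged with Dhdh. Pmaip1, which encodes the BH3 protein NOXA, fell from 30.8 and 31.6 to 23.5 and 22.6 FPKM, and Plk3, a kinase in a row merged with Btbd19, fell from 31.9 and 27.1 to 16.8 and 16.8 FPKM. Mdm2, the ubiquitin ligase that limits p53, did not pass (56.5 and 41.2 to 47.0 and 47.9 FPKM), and its groups overlapped.

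Of 21 AP-1 and immediate-early genes, 10 rose and 5 fell (median 0.61), or in 10 and 8 with either other scaling. Of the 10 that rose, 1 was tested only through the 72 h libraries. Fos and Jun, whose products pair to form AP-1, were among the falls. Fos was at 0.940 and 0.935 FPKM before cisplatin (0 h), then 18.1 and 17.9 (24 h), 13.7 and 12.9 (48 h) and finally 12.4 and 13.1 (72 h), a fall from 24 h to 72 h of 0.47 ± 0.08. Jun went from 52.1 and 51.3 to 33.4 and 35.3 FPKM, and Atf3, a stress-induced repressor of the same protein family, from 27.9 and 26.5 to 15.2 and 16.5 FPKM. The rises were in Ccn1, a matrix-bound signal (23.7 and 22.5 to 52.2 and 51.8 FPKM), Nr4a1, an orphan nuclear receptor (1.40 and 1.33 to 6.32 and 6.87 FPKM), Klf2 (1.58 and 1.54 to 4.66 and 4.95 FPKM) and Dusp1, a phosphatase of MAP kinases (9.08 and 9.31 to 17.9 and 18.7 FPKM). Myc rose from 4.42 and 4.21 to 7.60 and 8.06 FPKM. In each of these 8 genes the 24 h and 72 h libraries were apart.

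Heat shock proteins and chaperones fell in 10 of 15 and rose in 2 (median -0.52). The mitochondrial chaperonin pair Hspd1 and Hspe1 went from 186 and 176 to 83.0 and 80.4 FPKM and from 189.8 and 195 to 91.8 and 78.2 FPKM. Dnajb4, a cochaperone, went from 33.0 and 32.8 to 13.7 and 16.1 FPKM. Cryab, a small heat shock protein in a row merged with Hspb2, went the other way, from 43.3 and 38.7 to 116 and 119.98 FPKM, and Hspa4l rose by 0.26. Without either 72 h library Hspa4l was no longer called and 9 members fell.

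The unfolded protein and integrated stress response divided evenly, with 6 higher and 6 lower of 21 (median 0.03), or 4 and 10 with the same median in every library, and 5 and 9 once quantile normalised. Those that rose included the serine synthesis enzymes Psat1 (9.72 and 10.4 to 24.4 and 27.9 FPKM) and Phgdh (1.16 and 1.19 to 2.92 and 3.56 FPKM) and the asparagine synthetase Asns (4.11 and 4.31 to 7.75 and 6.74 FPKM). Those that fell included genes of the endoplasmic reticulum, with Herpud1 going from 59.3 and 49.4 to 38.0 and 34.2 FPKM and the chaperone Hspa5 from 215 and 196 to 157 and 148 FPKM. Ddit3, which encodes the pro-death factor CHOP, fell from 23.3 and 20.9 to 14.1 and 15.7 FPKM.

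NRF2 targets and metallothioneins also went both ways, with 7 higher and 6 lower of 18; the lower count was 8 with the same median in every library. Mt1 and Mt2, which bind zinc and other metals, were at 89.5 and 82.9 FPKM in the 24 h libraries, against 428 and 489.6 in the 72 h libraries and at 683 and 515 FPKM in the 24 h libraries, against 2472 and 2423 in the 72 h libraries. Both metallothioneins stood higher at 72 h than at 48 h, when Mt1 was at 178 and 189.6 and Mt2 at 1006 and 998 FPKM. Fth1, the ferritin heavy chain, rose by 0.79, and Cbr3, a carbonyl reductase in a row merged with Cbr1, by 1.21. Osgin1 fell from 20.4 and 17.9 to 7.69 and 7.64 FPKM, and Hmox1, haem oxygenase, from 54.5 and 51.9 to 44.0 and 47.9 FPKM.

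Regulators of cell death rose in 15 of 21 and fell in 1 (median 0.77); with the same median in every library 12 rose and 5 fell, and without 24 h library b 14 and 2. Of the 15 that rose, 1 was tested only through the 72 h libraries. Both sides of the balance were among those that rose. Bcl2l1, which encodes the survival protein BCL-XL, was at 17.4 and 16.7 FPKM in the 24 h libraries, against 51.7 and 56.5 in the 72 h libraries. Acsl4, which loads the lipids that ferroptosis oxidises, was at 11.9 and 14.1 FPKM in the 24 h libraries, against 45.3 and 44.1 in the 72 h libraries, while Gpx4, which clears oxidised lipids, was the member that fell (615 and 586 to 412 and 425 FPKM). Ripk3 and Mlkl, the kinase and effector of necroptosis, went from 1.24 and 1.66 to 3.34 and 3.32 FPKM and from 0.460 and 0.505 to 1.12 and 1.23 FPKM. The row of Bad, which rose by 1.05, also spans many other genes and is not read as that gene.

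**Figure D2:**
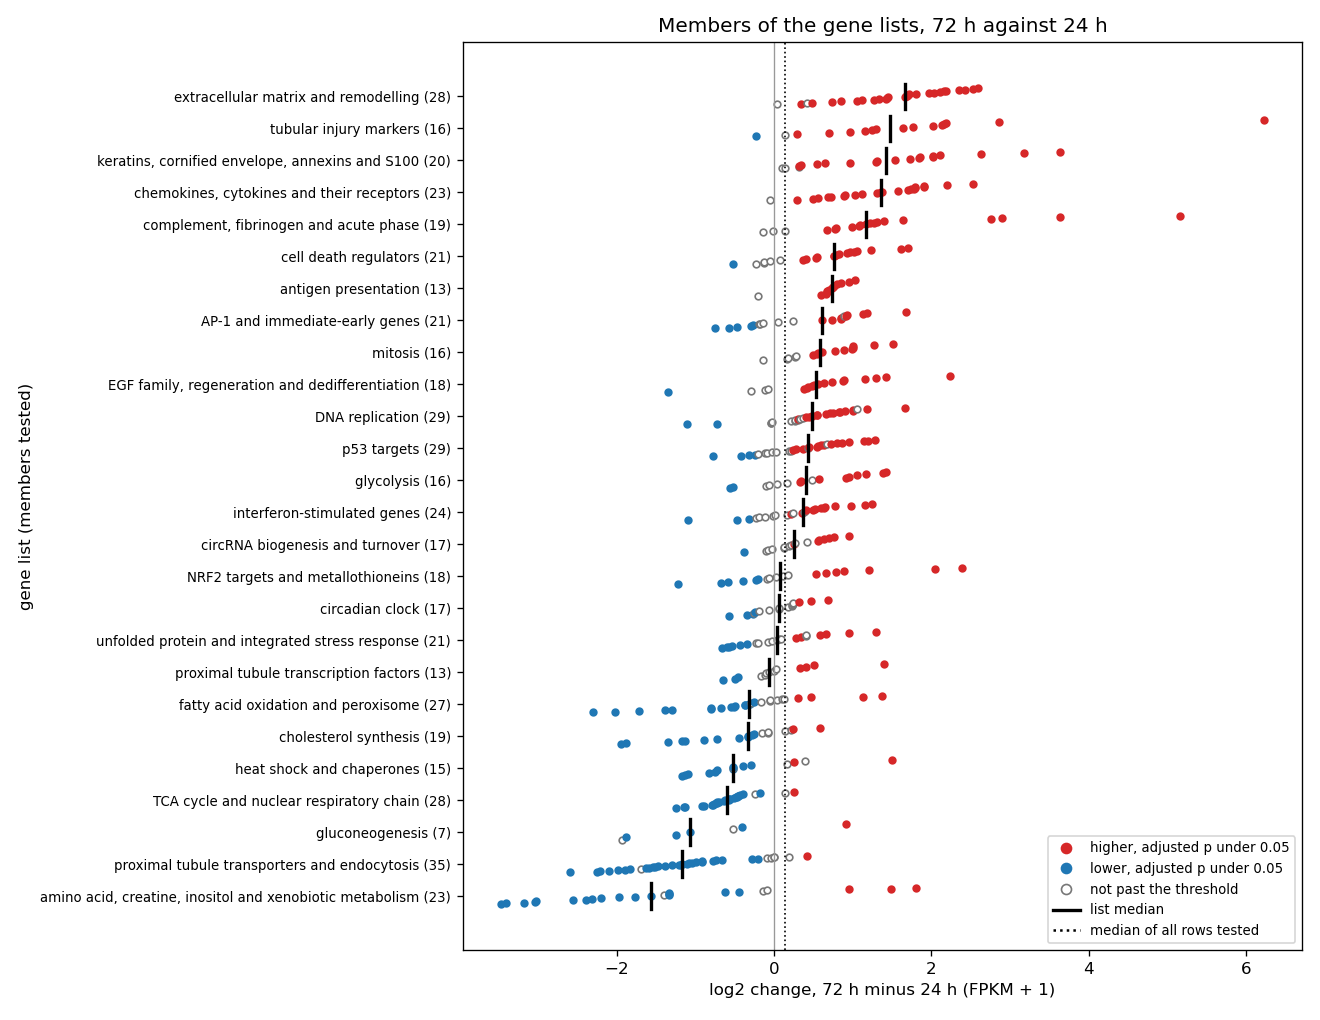
Log2 change from 24 h to 72 h for every tested member of 26 gene lists, ordered by list median (black bars). Red points were higher and blue points lower at a limma adjusted p under 0.05, open points did not pass, and the dotted line is the median of all tested rows (0.14). Matrix, injury and keratin lists lie at the top and lists of transport and metabolism at the bottom.

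Genes of the cell cycle rose late, at low levels. Of 31 mitosis genes with a row, 16 reached 1 FPKM in 2 libraries and were tested; 11 rose and none fell (median 0.59), or 11 and 1 with the same median in every library. Of the 16, 8 were tested only because the 72 h libraries passed the filter, so the count without a filter is the one to read. Without it 17 of 31 rose and none fell (median 0.43), beside 4536 of 19299 rows higher (median 0.015). With a 72 h library left out only 10 were tested, and 4 (without library a) or 5 (without library b) rose. Cdk1, the kinase that starts mitosis (chromosome 10, 69336535 to 69352938), was at 0.623 and 1.13 FPKM before cisplatin (0 h), then 0.856 and 0.731 (24 h), 1.21 and 1.15 (48 h) and finally 4.40 and 3.85 (72 h). The 72 h libraries stood above all 6 others (1.51 ± 0.14, limma adjusted p = 2.4e-05 against 24 h). Top2a, the topoisomerase that untangles chromosomes, went from 0.704 and 0.644 to 2.52 and 2.23 FPKM, Tpx2, a spindle protein, from 0.228 and 0.269 to 1.93 and 2.13 FPKM, and Ccnb2, the cyclin B2 that partners Cdk1, from 0.335 and 0.406 to 1.59 and 1.90 FPKM. Mki67, the proliferation marker Ki-67, went from 0.456 and 0.388 to 1.04 and 1.12 FPKM. The row of Kif23 is merged with Paqr5 and stood higher than the others, going from 26.7 and 22.1 to 46.0 and 52.8 FPKM.

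The mitosis genes share short sequence elements in their promoters. CCAAT, on either strand, is the box that the factor NF-Y binds, and TTTGAA, on either strand, is the cell cycle homology region (CHR) through which the DREAM and MuvB complexes silence these genes outside mitosis. CCAAT was in 25 of 28 windows of the mitosis list (89.3%) and TTTGAA in 21 of 28 (75.0%), against 37.4% and 17.9% of all 32851 windows. CCAAT was also common in lists that did not rise, with 12 of 14 cholesterol synthesis windows (85.7%) and 17 of 26 windows of the TCA cycle list (65.4%). TTTGAA was in no more than 40.0% of the windows of any other list with at least 5 windows. A CCAAT and a TTTGAA match can share a base, which none does in the windows shown. All list members with a window were counted, whether or not they rose. The windows of Cdk1 (chr10:69352863-69353162), Ccnb2 (chr9:70421505-70421804) and Top2a (chr11:99024140-99024439), all on the minus strand of GRCm38.p6 and taken from RefSeq, are shown because these genes rose together at 72 h. They are written in the direction of the gene, and capitals mark CCAAT and TTTGAA on either strand.
Cdk1: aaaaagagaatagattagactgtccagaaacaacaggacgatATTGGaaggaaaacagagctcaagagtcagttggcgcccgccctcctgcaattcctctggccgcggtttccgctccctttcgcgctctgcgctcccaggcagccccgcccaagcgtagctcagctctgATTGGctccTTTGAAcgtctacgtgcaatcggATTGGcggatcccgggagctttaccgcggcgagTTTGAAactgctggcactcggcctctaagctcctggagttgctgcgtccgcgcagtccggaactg
Ccnb2: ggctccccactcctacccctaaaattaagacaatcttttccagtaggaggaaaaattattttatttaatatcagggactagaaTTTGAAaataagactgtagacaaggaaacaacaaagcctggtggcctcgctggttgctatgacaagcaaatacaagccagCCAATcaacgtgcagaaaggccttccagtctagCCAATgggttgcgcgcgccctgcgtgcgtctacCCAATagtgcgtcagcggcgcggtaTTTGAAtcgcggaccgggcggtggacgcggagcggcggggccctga
Top2a: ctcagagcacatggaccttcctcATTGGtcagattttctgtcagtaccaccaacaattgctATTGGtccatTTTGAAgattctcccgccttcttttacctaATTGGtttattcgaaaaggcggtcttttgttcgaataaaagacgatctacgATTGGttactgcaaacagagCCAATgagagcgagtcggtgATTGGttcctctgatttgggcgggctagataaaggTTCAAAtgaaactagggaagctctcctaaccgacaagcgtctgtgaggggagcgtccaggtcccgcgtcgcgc
Cdk1 and Ccnb2 each held 3 CCAAT and 2 TTTGAA matches, and Top2a held 6 and 2. The TTTGAA match nearest the start began 15 bases before it in Cdk1, 23 bases before it in Top2a and 4 bases after it in Ccnb2. CCAAT matches began 80 and 48 bases before the start in Cdk1, 87, 54 and 21 in Ccnb2 and 98, 78 and 58 in Top2a, with others further out.

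DNA replication genes were called higher in 17 of 29 and fell in 2 (median 0.49), or in 12 and 4 after quantile normalisation. Of these 29, 7 were tested only through the 72 h libraries, and without a filter 19 of 31 rose and 2 fell. Uhrf1, which copies DNA methylation to new strands (chromosome 17, 56303254 to 56323486), was at 0.742 and 0.650 FPKM in the 24 h libraries, against 4.40 and 4.38 in the 72 h libraries. Rrm2 and Rrm1, the subunits of ribonucleotide reductase, went from 3.26 and 2.92 to 8.34 and 8.23 FPKM and from 3.77 and 3.59 to 7.92 and 8.81 FPKM. Ccne1, the cyclin of S phase entry, went from 0.206 and 0.201 to 1.15 and 1.37 FPKM, and Mcm2, a subunit of the replicative helicase, from 2.53 and 2.51 to 4.93 and 4.96 FPKM. Slbp, the histone mRNA binding protein, fell from 10.6 and 8.40 to 5.22 and 5.38 FPKM.

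The E2F recognition sequences TTCCCGC and TTGGCGC, each on either strand, were in 12 (38.7%) and 7 (22.6%) of the 31 windows of the replication list, against 4.60% and 2.45% of all windows. TTGGCGC was in 7 of 26 windows of the TCA cycle and respiratory chain list (26.9%), most of whose members fell, and in 5 of 28 of the mitosis list (17.9%). The window of Mcm3, another helicase subunit, which went from 0.870 and 0.392 to 2.70 and 1.82 FPKM, lies at chr1:20820263-20820562 on the minus strand and is shown because it holds both.
Mcm3: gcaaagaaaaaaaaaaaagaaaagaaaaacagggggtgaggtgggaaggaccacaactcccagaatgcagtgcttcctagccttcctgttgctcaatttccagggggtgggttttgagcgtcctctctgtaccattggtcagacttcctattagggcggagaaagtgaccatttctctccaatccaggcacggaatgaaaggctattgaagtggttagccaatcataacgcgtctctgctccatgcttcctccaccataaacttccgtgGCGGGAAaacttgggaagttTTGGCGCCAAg
TTCCCGC occurred 1 time, beginning 19 bases after the start, and TTGGCGC 2 times, beginning 39 and 42 bases after it on opposite strands, so that these matches overlap. All motif counts are descriptions of these windows with no test,.

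Ligands of the EGF receptor went both ways. Of the list of EGF family members, dedifferentiation factors and regeneration genes, 14 of 18 rose and 1 fell (median 0.54), of which 4 were tested only through the 72 h libraries. The member that fell was Hbegf, a ligand of the EGF receptor, at 8.59 and 8.79 FPKM before cisplatin (0 h), then 80.1 and 85.3 (24 h), 51.4 and 48.4 (48 h) and finally 30.2 and 33.6 (72 h). Other ligands of that receptor rose: Tgfa went from 0.514 and 0.428 to 2.75 and 3.16 FPKM and Areg from 0.390 and 0.463 to 1.53 and 1.75 FPKM. The receptor gene Egfr, in a row merged with Ppp3r1, rose by 0.63. Pax8, a transcription factor of kidney development, went from 14.5 and 13.1 to 37.5 and 33.5 FPKM, and Osmr, the oncostatin M receptor, from 11.2 and 10.6 to 24.1 and 26.6 FPKM. Il24, a cytokine of the IL-10 family, was listed at 0 in 24 h library a and at 0.0758 FPKM in library b, and at 3.33 and 4.49 at 72 h.

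**Figure D3:**
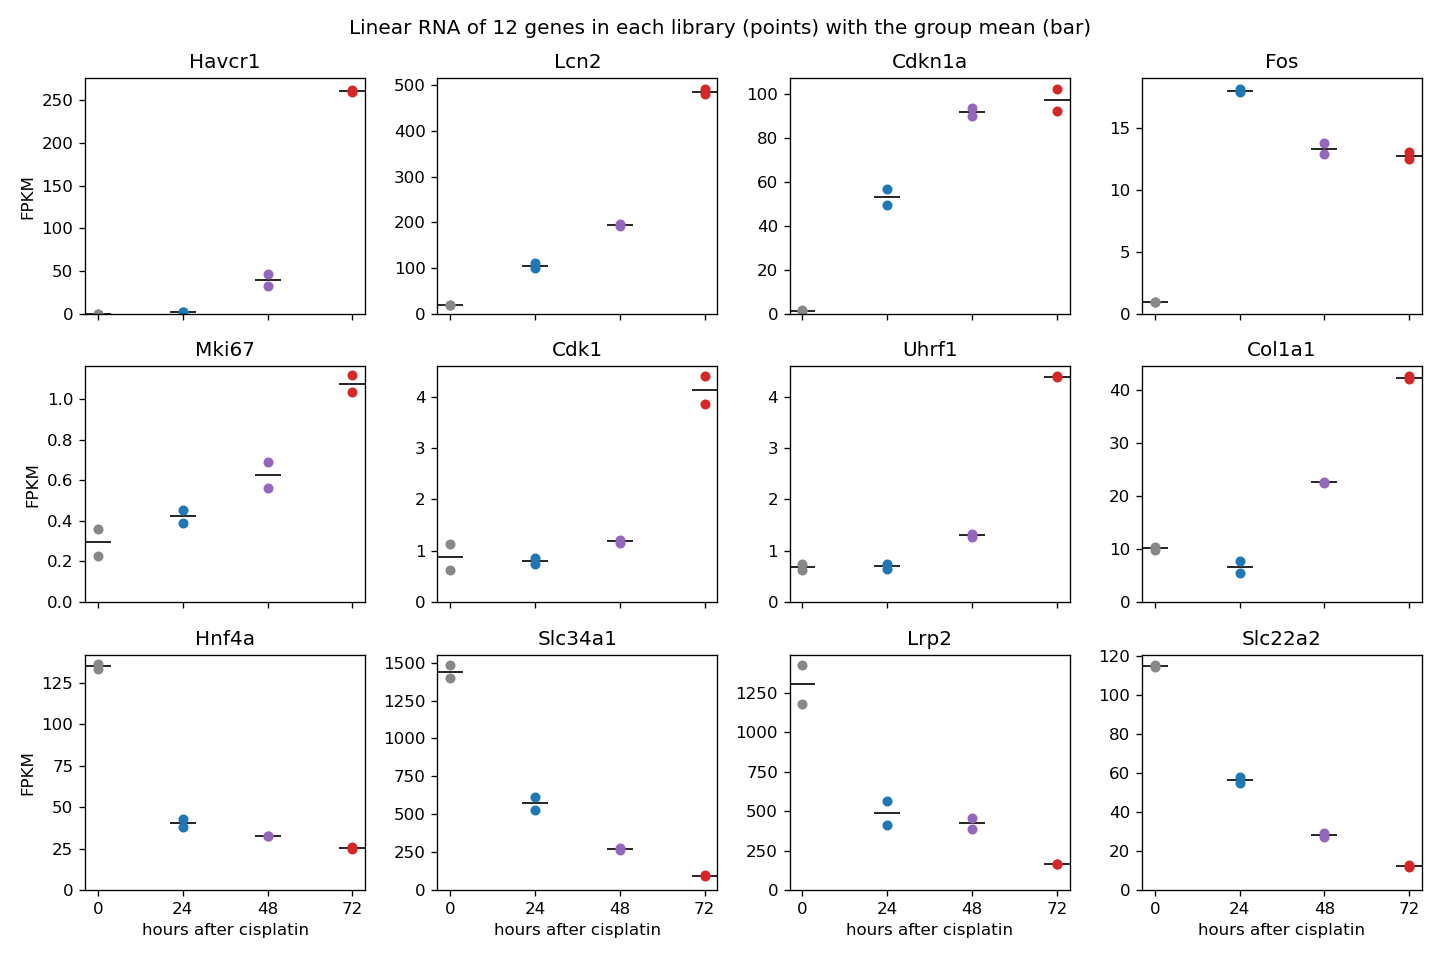
FPKM of 12 genes in each of the 8 libraries (points) by hours after cisplatin, with the mean of each group as a bar; each panel has its own axis from 0. Havcr1, Cdk1 and Uhrf1 are highest at 72 h, Fos is highest at 24 h, and the group means of Slc34a1, Lrp2, Slc22a2 and Hnf4a are lower at each later time.

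Chemokines, cytokines and their receptors rose in 22 of 23 with none lower (median 1.36), or 1 lower with either other scaling; 3 were tested only through the 72 h libraries, and without a filter 25 of 29 rose. Among ligands that draw neutrophils and monocytes, Cxcl2 was at 1.63 and 1.66 FPKM in the 24 h libraries, against 8.73 and 9.17 in the 72 h libraries and Ccl2 at 1.98 and 2.45 FPKM in the 24 h libraries, against 11.4 and 10.7 in the 72 h libraries. Cx3cl1, a membrane-bound chemokine, went from 7.47 and 7.15 to 27.7 and 27.3 FPKM. Il1b, the inflammasome cytokine, was at 2.11 and 3.23 FPKM in the 24 h libraries, against 20.6 and 19.4 in the 72 h libraries, and Il1rn, which blocks its receptor, went from 0.607 and 0.592 to 6.59 and 6.15 FPKM, with its 48 h libraries already at 5.90 and 5.06 FPKM. Csf1, the growth factor of macrophages, went from 2.74 and 2.62 to 12.3 and 10.5 FPKM, and Tgfb1, the profibrotic cytokine, from 1.57 and 1.58 to 8.12 and 7.75 FPKM. Cxcl12, a homing chemokine, was the member that did not pass (9.07 and 8.88 to 8.24 and 8.96 FPKM).

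Complement, fibrinogen and acute phase genes rose in 16 of 19 with none lower (median 1.16), or 1 lower with the same median in every library. Of the 16 that rose, 3 were tested only through the 72 h libraries; without a filter 17 of 20 rose. Fgg, Fgb and C3, described above, were among them. Saa1, an acute phase protein, was listed at 0 in 24 h library a and at 0.129 FPKM in library b, and at 5.88 and 6.54 at 72 h. Saa3, of the same family, did not pass: it was at 5.40 and 5.01 to 5.14 and 5.13 FPKM. Genes of antigen presentation rose in 12 of 13 (median 0.73), and 1 fell with the same median in every library. Of these 12, 1 was tested only through the 72 h libraries. Cd74, the invariant chain, went from 32.9 and 30.9 to 57.4 and 59.4 FPKM, and the class II genes H2-Aa and H2-Eb1 from 23.4 and 21.5 to 35.8 and 36.8 FPKM and from 11.1 and 10.5 to 18.8 and 19.4 FPKM. At 0 h these class II genes had been higher than at either later time, at 64.8 and 56.5 and 34.0 and 28.8 FPKM.

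Interferon-stimulated genes were mixed, with 12 of 24 higher and 3 lower (median 0.37), or 8 and 6 after quantile normalisation. Of the 12 that were higher, 1 was tested only through the 72 h libraries. Irf7, an amplifier of interferon transcription, went from 18.8 and 17.8 to 44.1 and 45.4 FPKM, and Isg15, a ubiquitin-like protein, from 1.22 and 0.953 to 3.57 and 3.71 FPKM. Gbp2 and Ifit1 fell from 8.67 and 9.40 to 6.13 and 6.32 FPKM and from 6.21 and 7.01 to 5.11 and 5.10 FPKM. The row of Ifih1, which fell by 1.09, is merged with Dpp4, a brush border peptidase. The interferon list had the element GAAANNGAA, on either strand, in 14 of 26 promoter windows (53.8%), against 8.56% of all windows; members with and without it were not compared.

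Extracellular matrix genes formed the list with the highest median. They rose in 26 of 28 with none lower (median 1.67). The basement membrane collagens Col4a1 and Col4a2 went from 68.3 and 65.0 to 264 and 289 FPKM and from 30.3 and 29.5 to 116 and 123 FPKM. Col1a1, the fibrillar collagen of scar (chromosome 11, 94936224 to 94953042), was at 7.69 and 5.505 FPKM in the 24 h libraries, against 42.0 and 42.5 in the 72 h libraries, with 22.6 and 22.5 at 48 h. Its 72 h libraries were above all others (2.53 ± 0.12, limma adjusted p = 6.3e-07). Timp1, an inhibitor of matrix proteases, was at 8.81 and 9.16 FPKM in the 24 h libraries, against 43.3 and 43.9 in the 72 h libraries, Bgn, the proteoglycan biglycan, at 23.7 and 18.8 FPKM in the 24 h libraries, against 116 and 119.5 in the 72 h libraries, and Fn1, fibronectin, at 3.06 and 2.35 FPKM in the 24 h libraries, against 20.3 and 22.2 in the 72 h libraries. The YAP-responsive Ccn2 went from 13.9 and 13.8 to 60.5 and 65.9 FPKM, after 16.2 and 10.9 FPKM at 48 h. Dcn, the proteoglycan decorin, did not pass (34.7 and 30.1 to 35.3 and 31.4 FPKM), nor did Lox.

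RNA of proximal tubule transport genes fell further between 24 h and 72 h. Of 35 transporters, brush border enzymes and endocytic receptors, 28 fell and 1 rose (median -1.17). In bulk RNA, fewer proximal tubule cells and less of these RNAs per cell cannot be told apart. Slc34a1, the sodium-phosphate cotransporter (chromosome 13, 55398131 to 55414695), was at 616 and 529 FPKM in the 24 h libraries, against 90.8 and 97.7 in the 72 h libraries. Slc22a2, which carries organic cations and cisplatin into the cell (chromosome 17, 12583863 to 12628366), was at 54.8 and 57.8 FPKM in the 24 h libraries, against 11.9 and 13.0 in the 72 h libraries. Slc22a12, the urate exchanger, was at 397 and 365 FPKM in the 24 h libraries, against 77.5 and 86.4 in the 72 h libraries, and Ggt1, the brush border enzyme that splits glutathione, at 293 and 272 FPKM in the 24 h libraries, against 70.0 and 70.6 in the 72 h libraries. No 72 h library reached a 24 h library in these genes, and their log2 changes were -2.59, -2.10, -2.21 and -1.99. Lrp2, the endocytic receptor megalin, was at 563 and 415 FPKM in the 24 h libraries, against 165 and 166 in the 72 h libraries (-1.54 ± 0.16, limma adjusted p = 1.9e-04), and its partner Cubn at 67.6 and 67.6 FPKM in the 24 h libraries, against 31.5 and 33.0 in the 72 h libraries.

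Not all members fell. The 1 that rose was the row of Slc6a19, the neutral amino acid transporter, merged with its neighbour Slc6a18, which went from 136 and 123 to 161 and 187 FPKM. Slc9a3, the sodium-proton exchanger of the brush border, did not pass, at 11.7 and 12.4 to 11.97 and 12.2 FPKM. Neither did Dab2, the adaptor of megalin (53.8 and 55.5 to 53.3 and 56.4 FPKM), the amino acid transporter Slc7a8 (18.0 and 15.95 to 17.5 and 15.6 FPKM) or the sulfate transporter Slc13a1 (91.0 and 93.9 to 79.3 and 95.8 FPKM). All 4 stood higher at 0 h, with Slc9a3 at 35.1 and 31.6 and Slc7a8 at 85.1 and 88.0 FPKM. Both sets of segment markers fell: 8 of 8 for S1 and S2 (median -1.67) and 7 of 9 for S3 (median -1.10). Slc22a8, an organic anion transporter of S1 and S2, went from 122 and 103 to 20.8 and 24.96 FPKM, and Slc22a7, of S3, from 29.8 and 32.6 to 4.51 and 2.77 FPKM.

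The direction of the proximal tubule transcription factors rested on the scaling. Of 13, 4 rose and 3 fell, or 2 and 6 with the same median in every library, and 1 and 7 once quantile normalised. Without 24 h library b or 72 h library a, 2 rose. Hnf4a, the nuclear receptor that drives tubule maturation, was at 136 and 133 FPKM before cisplatin (0 h), then 43.1 and 38.0 (24 h), 32.6 and 32.3 (48 h) and finally 24.8 and 26.1 (72 h). Its fall from 24 h to 72 h was 0.65 ± 0.07 (limma adjusted p = 9.2e-05). Ppara, the nuclear receptor of fatty acid oxidation, rose from 4.86 and 3.66 to 11.99 and 13.5 FPKM, close to its 11.8 and 12.9 FPKM at 0 h. Maf, which marks the mature tubule, did not pass (11.5 and 11.01 to 10.8 and 10.6 FPKM).

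Metabolic lists fell, with exceptions. Genes of the TCA cycle and the nuclear-encoded respiratory chain fell in 25 of 28 and rose in 1 (median -0.60). Cox6c, a subunit of cytochrome oxidase, was at 1257 and 1213 FPKM in the 24 h libraries, against 543 and 575 in the 72 h libraries, and Suclg2, of succinyl-CoA ligase, at 118 and 108 FPKM in the 24 h libraries, against 51.0 and 51.1 in the 72 h libraries. Uqcrc2 and Sdhb, subunits of complexes III and II, fell by 0.89 and 0.79. The 1 that rose was Cs, citrate synthase (44.2 and 43.9 to 51.1 and 54.6 FPKM), which was not called with the same median in every library (0.05) or without 72 h library b.

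Fatty acid oxidation and peroxisomal genes fell in 16 of 27 and rose in 4 (median -0.32). Acsm2 and Acsm1, medium-chain acyl-CoA synthetases, went from 739 and 709 to 148 and 145 FPKM and from 58.6 and 56.1 to 13.3 and 13.4 FPKM, and Acadm, the medium-chain dehydrogenase, from 294 and 283 to 82.8 and 91.6 FPKM. The rises were in Pdk4, the kinase that restrains pyruvate oxidation (17.4 and 17.5 to 39.2 and 39.9 FPKM), Cpt2 (0.30) and the merged rows of Cpt1a (0.47) and Acadsb (1.37). Hadha, of the trifunctional protein, and Acsl1 did not pass, at 75.8 and 72.6 to 74.6 and 77.5 FPKM and at 33.4 and 33.0 to 29.4 and 34.7 FPKM.

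Glucose pathways went opposite ways. In gluconeogenesis 4 of 7 fell and 1 rose (median -1.07). G6pc, which releases glucose, was at 41.2 and 41.1 FPKM in the 24 h libraries, against 10.6 and 10.2 in the 72 h libraries, and Slc37a4, which carries its substrate, at 52.5 and 54.0 FPKM in the 24 h libraries, against 23.1 and 20.9 in the 72 h libraries. Pck1, the entry enzyme, fell less, from 276 and 232 to 188 and 194 FPKM, and Gpt2, an alanine transaminase, rose by 0.92. In glycolysis 9 of 16 rose and 2 fell (median 0.41), or 7 and 5 with the same median in every library. The glucose transporter Slc2a1 was at 14.5 and 14.7 FPKM in the 24 h libraries, against 37.7 and 41.8 in the 72 h libraries, and the hexokinases Hk1 and Hk2 went from 10.4 and 11.7 to 23.9 and 24.0 FPKM and from 0.525 and 0.474 to 3.09 and 2.96 FPKM. Gapdh did not pass (712 and 655 to 621 and 655 FPKM).

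Amino acid, creatine, inositol and xenobiotic metabolism had the lowest median of the functional lists, -1.56, with 17 of 23 lower and 3 higher. Beside Miox, Hao2, Acmsd and Akr1c21, Prodh2, of hydroxyproline breakdown, fell from 23.6 and 19.3 to 2.90 and 2.68 FPKM. The 3 that rose were Gldc, of glycine cleavage (9.96 and 9.40 to 29.0 and 28.9 FPKM), and both enzymes of vitamin D turnover: Cyp24a1, which inactivates the hormone (1.77 and 1.32 to 6.89 and 8.93 FPKM), and Cyp27b1, which makes it, in a row merged with Mettl1 (4.74 and 5.25 to 10.4 and 10.9 FPKM). Cholesterol synthesis genes fell in 12 of 19 and rose in 2, or in 1 with any 0 h, 24 h or 72 h library left out (median -0.33); without either 72 h library 7 fell, and without 24 h library a 8 fell. Cyp51, of sterol demethylation, went from 50.6 and 46.3 to 12.7 and 11.1 FPKM, Insig1, a sterol sensor, from 34.1 and 36.6 to 12.6 and 13.9 FPKM, and Hmgcs1 from 74.5 and 79.5 to 34.5 and 34.6 FPKM.

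Markers of other cell types moved in the same comparison, and their part in the lists above was not tested. The summed level of 10 unmerged macrophage and monocyte rows was 54.4 and 44.7 FPKM in the 24 h libraries, against 158 and 162 in the 72 h libraries, and all 11 tested members rose. Lyz2, the lysozyme of myeloid cells, went from 14.98 and 15.2 to 78.9 and 79.5 FPKM, and Itgam, the integrin CD11b, from 1.52 and 1.80 to 8.97 and 9.19 FPKM. The 9 neutrophil rows summed to 28.9 and 27.4 FPKM in the 24 h libraries, against 79.4 and 76.95 in the 72 h libraries; all 7 tested members rose, 3 of them tested only through the 72 h libraries, and with either 72 h library left out 4 of 4 tested rose. S100a8, the calgranulin of neutrophils, went from 13.0 and 13.8 to 32.8 and 30.9 FPKM, and Il1r2, the decoy receptor of interleukin 1, from 0.961 and 1.21 to 11.4 and 11.3 FPKM, while Ly6g stayed under 1 FPKM in all 4 libraries. Endothelial rows summed to 90.1 and 86.9 FPKM in the 24 h libraries, against 179.8 and 185 in the 72 h libraries, with 10 of 11 higher, among them Flt1, a VEGF receptor (6.11 and 6.58 to 29.3 and 30.1 FPKM). Fibroblast and pericyte rows summed to 102 and 87.5 FPKM in the 24 h libraries, against 215 and 211 in the 72 h libraries, with 6 of 9 higher and 2 lower (1 without 24 h library a or 72 h library a): Pdgfra went from 3.13 and 3.48 to 12.9 and 12.9 FPKM, whereas the pericyte gene Rgs5 fell from 14.6 and 14.7 to 9.34 and 9.28 FPKM, and Lum and Gli1 stayed under 1 FPKM.

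Lymphocyte markers were near 0. Of 9 T and NK cell rows, 8 were under 1 FPKM in all 4 libraries, Cd3e, Cd3g, Cd4 and Cd8a among them, and the sum was 2.12 and 1.59 FPKM in the 24 h libraries, against 3.13 and 3.24 in the 72 h libraries. B and plasma cell rows without the merged Cd79a summed to 1.18 and 0.835 FPKM in the 24 h libraries, against 1.89 and 1.96 in the 72 h libraries, with Ms4a1 at 0 in some libraries. Podocyte rows summed to 72.1 and 75.5 FPKM in the 24 h libraries, against 82.5 and 83.3 in the 72 h libraries, with 4 of 9 members higher and 2 lower, or 1 and 2 after quantile normalisation and 2 and 1 without 24 h library a or 72 h library b. Rows of the parietal epithelium list summed to 20.2 and 20.4 FPKM in the 24 h libraries, against 114 and 116 in the 72 h libraries. Which cells this RNA came from was not measured, so the sum is not a count of parietal cells. Of 5 members 4 rose, 1 of them tested only through the 72 h libraries. The rises were led by the tight junction gene Cldn1 (4.85 and 5.54 to 40.3 and 41.0 FPKM) and the scaffold gene Akap12 (11.2 and 12.3 to 66.4 and 68.6 FPKM). Distal convoluted tubule rows summed to 2124 and 1814 FPKM in the 24 h libraries, against 996 and 1064 in the 72 h libraries, with 5 of 9 lower and 1 higher (4 and 2 without 72 h library a). Those that fell included Kl, which encodes Klotho (59.0 and 56.9 to 14.8 and 17.4 FPKM), and the sodium-chloride cotransporter Slc12a3 (32.6 and 29.6 to 16.4 and 14.8 FPKM). Kl and Slc12a3 hold a small part of the distal convoluted tubule sum, which rests mostly on other members. Thick ascending limb rows summed to 279 and 278 FPKM in the 24 h libraries, against 190.4 and 192 in the 72 h libraries, with 3 of 7 higher and 3 lower.

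**Figure D4:**
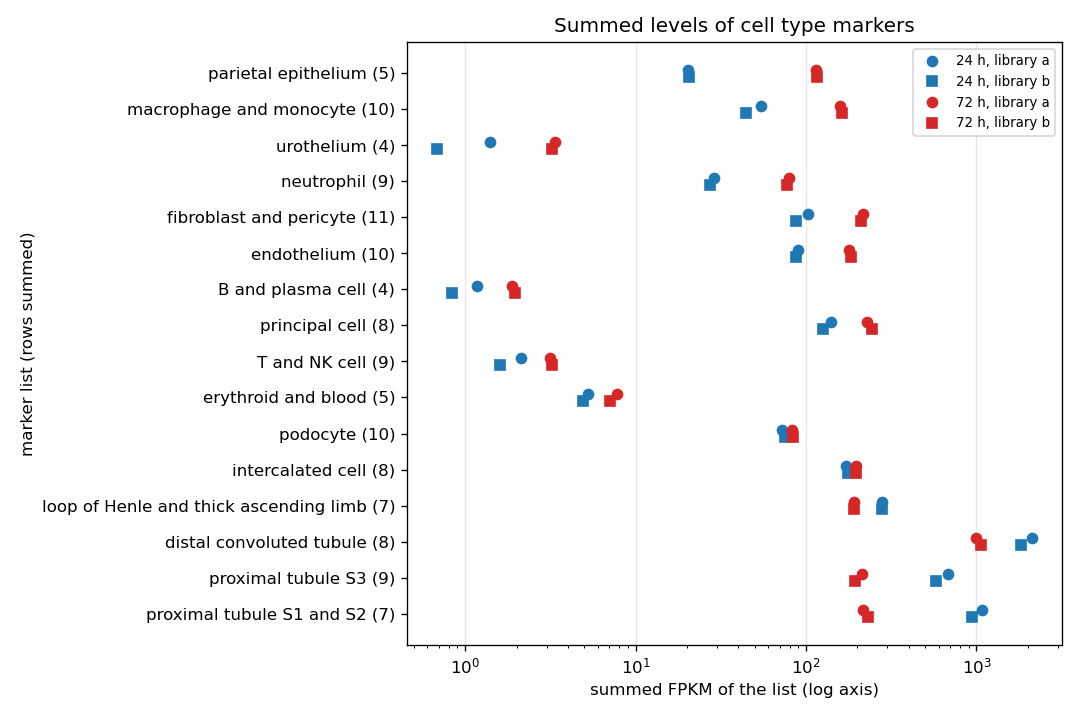
Summed FPKM on a log axis of the marker rows of 16 cell types (rows summed in brackets, merged rows left out) in the 24 h and 72 h libraries. Parietal, macrophage, neutrophil, fibroblast and endothelial sums are higher in both 72 h libraries, and proximal and distal convoluted tubule sums are lower. The erythroid and blood sum leaves out the merged globin row Hbb-bs, which fell, and includes the platelet genes Pf4 and Ppbp, which rose.

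Circular RNAs arise when a downstream splice site is joined to an upstream one, and lacking free ends they are known to outlast linear RNA. edgeR's quasi-likelihood test called 23 of 1574 tested circRNAs (1.46%) between 24 h and 72 h, 6 higher (0.381%) and 17 lower (1.08%). DESeq2 called 11. The count rests on the 72 h libraries: without library a it was 12 and without library b 11. Positions are given as the table gives them, on mm10.

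The circRNA with the largest fall lay in Arhgap5, which encodes a GTPase-activating protein (chr12:52516079-52519967). It had 133 and 152 counts in the 24 h libraries, against 12 and 18 in the 72 h libraries. It was also low at 0 h, at 20 and 25 counts, and high at 48 h, at 116 and 107. The log2 change was -3.19 (edgeR adjusted p = 2.5e-27), against -0.83 for the merged linear row of its host. Set against that row, the circle's change of -2.32 did not pass the threshold (limma adjusted p = 0.16). A longer circle from the same start in Arhgap5 (chr12:52516079-52542636) went from 18 and 27 to 5 and 5 counts.

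A pair of abundant circles fell over the P450 and UDP glycosyltransferase clusters, which the proximal tubule expresses highly. One spans Cyp2j5 and Cyp2j9 (chr4:96583977-96658752) and had 201 and 182 counts in the 24 h libraries, against 25 and 31 in the 72 h libraries. The other spans Ugt3a1 and Ugt3a2 (chr15:9311749-9365377) and had 276 and 305 counts in the 24 h libraries, against 62 and 69 in the 72 h libraries. Both had been higher still at 0 h, at 265 and 407 counts and at 595 and 748. They have no single host gene, and since their ends lie in neighbouring genes of 1 family, reads may be shared between near-identical copies. The row of Ugt3a2, which is merged, went from 404 and 396 to 82.1 and 77.6 FPKM in linear RNA. Both circles passed under all 15 alternatives.

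The most abundant circle of these 4 libraries came from Slc8a1, the sodium-calcium exchanger (chr17:81647809-81649638). It had 809 and 745 counts in the 24 h libraries, against 378 and 373 in the 72 h libraries. Both 72 h libraries lay below both 24 h libraries (log2 -1.002, edgeR adjusted p = 7.8e-13). The linear row of Slc8a1 was at 10.9 and 10.5 FPKM in the 24 h libraries, against 11.5 and 16.1 in the 72 h libraries and did not pass (limma adjusted p = 0.061). Set against that row, the circle fell by 1.32 (limma adjusted p = 0.0037). It was the only 1 of 1224 circRNAs with a host row to change against it (0.0817%), and it was called under every alternative run. The falling circles with the next smallest p in that comparison, in Mitf, Wwc2 and Arid1b, and the rising ones with the smallest p, in Ncoa2, Ttll3, Wdr78 and Npas2, had limma adjusted p from 0.16 to 0.26.

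Other circles that fell lay in Mtus1 (16 and 12 counts to 1 and 2), Asxl3 (20 and 14 to 3 and 3), Zfp644 (33 and 21 to 7 and 3) and Kansl1l (18 and 26 to 5 and 4). At such counts the size of the change is uncertain; of these 4 DESeq2 called Zfp644 alone (adjusted p = 0.041). Both circles of Tcf20, a transcriptional coregulator, fell from 95 and 96 to 44 and 41 counts and from 85 and 83 to 40 and 44. The linear row of Tcf20 did not pass (24.4 and 23.3 to 19.8 and 21.6 FPKM). Circles of Stk39, Hnrnpu, Zzz3, Birc2 and Smad4 and 1 that lies in no gene made up the rest. Of the other circles with the highest counts, those of Gigyf2, Rasa2, Aass and Ankib1 did not pass.

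The 6 that rose were led by a circle inside Pvt1, a long noncoding RNA next to Myc (chr15:62107148-62107465). It had 5 and 13 counts in the 24 h libraries, against 45 and 45 in the 72 h libraries, a log2 change of 2.35 (edgeR adjusted p = 6.4e-06; DESeq2 0.0016), and it was the only 1 of the 6 that DESeq2 also called. Circles of Srgap1, Aebp2 and Farsa went from 8 and 5 to 28 and 25 counts, from 7 and 4 to 21 and 23, and from 8 and 13 to 40 and 21. Nfkb1, a subunit of NF-kB, had a circle that went from 41 and 28 to 81 and 69 counts, a log2 change of 1.16, beside a rise of 1.12 in its linear row (7.71 and 6.62 to 18.4 and 15.2 FPKM). A circle of Rnf169, a ubiquitin ligase of DNA repair, went from 67 and 86 to 124 and 137.

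**Figure D5:**
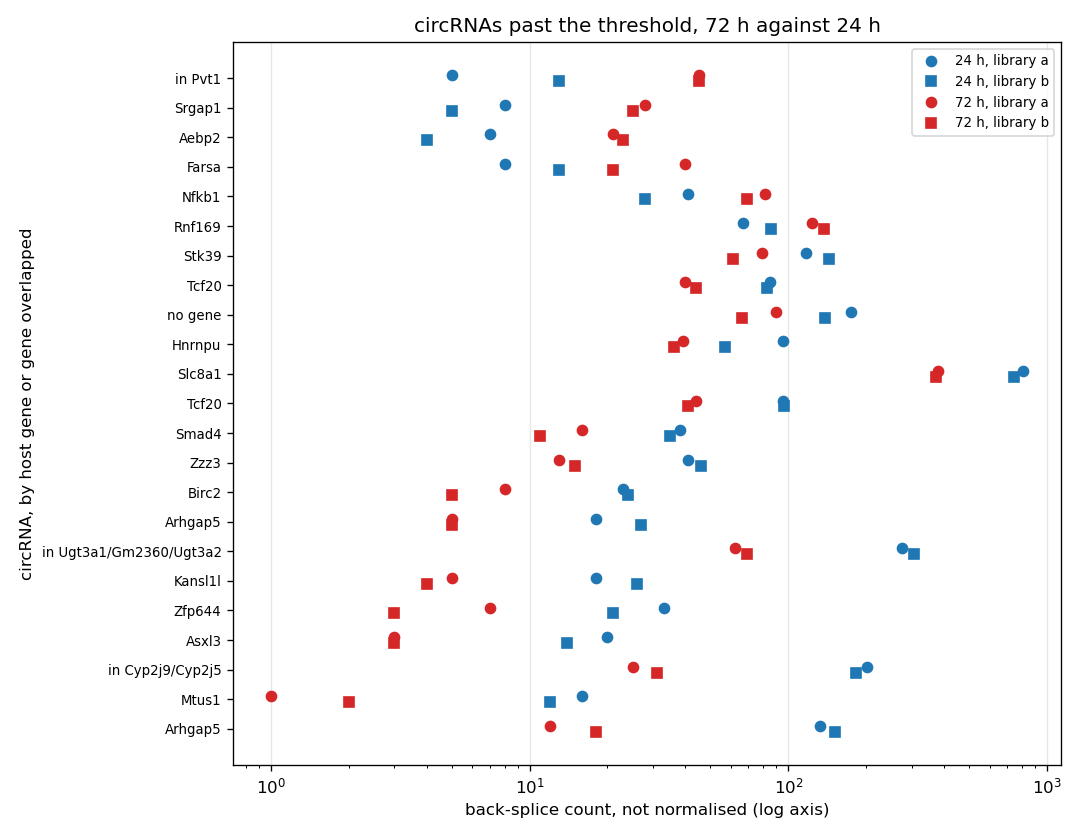
Back-splice counts, not normalised and on a log axis, of the 23 circRNAs called between 24 h and 72 h, named by host gene or by the genes their span overlaps; circles are library a and squares library b. The Slc8a1 circle lies furthest right, and the Arhgap5, Cyp2j and Ugt3a circles are the abundant ones with the widest gap between the groups.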

How the data were processed

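RNA of isolated mouse proximal tubules was analysed from 2 deposited tables with 8 libraries each, 2 per time. In the gene table the authors gave FPKM, per the file headers, and in the circRNA table whole counts of back-splice reads. Per the submitters' processing notes Bowtie 0.12.2, TopHat2, Cufflinks and mm10 were used, with no role stated; the circRNA caller and the annotation are not given in the sources used here. Reads that fit several copies of a gene could be split between them. Rows were compared with RefSeq spans (tolerance 2000 bases): 1412 of 21874 were merged. Per-sample columns not used numbered 8; they hold each circRNA count divided by its library's total. Per the labels' protocols, ribosomal RNA was removed and a small RNA library kit used, so how the longer RNA was prepared, and what lengths the FPKM and counts cover, is unclear.

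The 8 columns were grouped by time label. log2(FPKM + 1) of 10757 rows with at least 1 FPKM in 2 libraries was fitted in limma 3.58.1 (trend, robust) over all 8 libraries; 11117 rows were not tested. The 1574 circRNAs with a count in at least 4 libraries were fitted in edgeR 4.0.16 (quasi-likelihood, TMM), and circRNA against host row in limma. P-values were Benjamini-Hochberg adjusted over each table, two-sided, at 0.05. With 2 against 2 libraries an exact permutation test cannot go below p = 0.333, so none is used. Alternatives covered scaling, filters, pseudocount, DESeq2 1.42.0, a block by column letter and each library left out.

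On simulated data with the real means limma recovered 50 of 100 changes of 0.5 and 86 of 100 changes of 1 on the log2 scale over 10757 rows. It called 7 unchanged rows. The simulated share of changed rows was far smaller than the 57.4% called in the real data, and the Benjamini-Hochberg adjustment depends on that share. The limma counts therefore do not give the recovery in the real comparison. Among 1574 circRNAs edgeR recovered 22 of 100 changes of 1 and 68 of 100 changes of 2, and called 2 unchanged ones. The changed circRNAs were drawn only from those with higher expected counts, under a dispersion that was set and not estimated. Recovery for circles with few counts is therefore not shown.

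Genes named by rule were the 12 largest rises and 12 largest falls (called, libraries not overlapping, none at 0, predicted genes left out), up to 4 members a list by smallest p, 10 fixed genes, and circRNAs by change, count and change against host. Rows without a symbol were left out. Other members named were chosen after their values were seen. The members and lists were chosen with earlier results of these data known. Promoter windows are RefSeq's, GRCm38.p6. Some list members are counted but not reported here by name.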

Additional observations from a re-analysis of the deposited data

How the results depend on the processing

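The count of called linear rows, 6178, ranged from 4825 to 6060 with a library left out (4825 without 72 h library b, 4939 without 72 h library a). Higher calls ranged from 3109 to 3984 and lower calls from 1684 to 2152. Limited to rows that keep to their own gene, which tests 6501 rows, 3811 were called, 2699 higher and 1112 lower. Giving all libraries 1 median made 3357 rows lower, against 2125; the cause was not tested. The circRNA count of 23 became 11 in DESeq2, where 1007 adjusted p were NA, and ranged from 11 to 24 with a library left out, its higher calls from 2 to 6 and its lower calls from 7 to 18. The 1 circRNA called against its host was called in every setting.

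What columns with the same letter share beyond the letter is not stated in the labels. Their deviations correlated at 0.39 between 24 h and 72 h, the groups compared here, and from -0.24 to 0.15 between the other groups. The source of that correlation was not tested. With the replicate block by letter, 6098 linear rows (4005 higher, 2093 lower), 23 circRNAs (6 higher, 17 lower) and 1 circRNA against host were called.

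Of 3057 alternative values of 176 named genes, 3016 kept direction and side of the threshold and 41 lost the call; none reversed. Of 502 for 34 named circRNAs, 441 were the same, 59 lost the call and 2 gained it. Circles with few counts limit this most. Most of the named genes were picked by size of change or small p in the main fit, which favoured keeping the call. Their stability does not describe rows in general. With the same median in every library, 5050 of all 6178 called linear rows kept their call.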

Other observations

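Markers of the collecting duct, which a preparation of proximal tubules may carry, stood higher at 72 h. Of 8 principal cell genes 7 rose and none fell (median 0.72), and the summed level was 140 and 126 FPKM in the 24 h libraries, against 228 and 244 in the 72 h libraries. Hsd11b2, which protects the mineralocorticoid receptor from cortisol-type hormones, was at 22.2 and 20.6 FPKM before cisplatin (0 h), then 2.53 and 2.37 (24 h), 6.54 and 5.51 (48 h) and finally 13.6 and 13.7 (72 h). Aqp3, a water channel, went from 16.9 and 16.8 to 38.9 and 41.6 FPKM. Of 8 intercalated cell genes 4 rose and none fell; Foxi1, their master regulator, went from 0.0394 and 0.0986 to 1.30 and 1.35 FPKM. Avpr2, the vasopressin receptor, did not pass.

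Genes that act on circRNA formation or decay rose in 7 of 17 and fell in 1 (median 0.25), beside 37.7% higher among all rows tested. Of the 17, 6 rose and 2 fell when all libraries were given 1 median, and 7 and 2 once quantile normalised or without 24 h library b. Mbnl1, whose protein binds flanking introns, went from 17.8 and 20.5 to 37.8 and 38.3 FPKM, and Hnrnpl from 43.0 and 44.2 to 64.7 and 64.8 FPKM. Ythdf2, an m6A reader, fell by 0.38 on the log2 scale. Clock genes rose in 3 of 17 and fell in 4, or in 2 and 7 with either other scaling; without 24 h library a 4 rose and none fell, and without 72 h library b 2 rose and none fell. Bhlhe40, a repressor of clock genes, went from 19.9 and 18.4 to 26.9 and 27.1 FPKM.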
